A study of Mus musculus with 54 samples.

Results

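Gene expression was compared between embryoid bodies (EBs) of the scrambled control line (SCR) and EBs of untransfected wild-type cells (WT) after 4 days of differentiation. The 3 SCR arrays and the 3 WT arrays of day 4 were taken by line and day from the labels, 6 of the 54 arrays of the series. Both lines come from CGR8, a murine embryonic stem cell (ESC) line that the labels give as male and of strain 129. SCR cells carry a retroviral silencing plasmid with a scrambled shRNA that has no target, GFP and puromycin resistance, while WT cells carry no plasmid. A line called KD holds a plasmid of the same kind with an shRNA against Mageb16, a gene of the melanoma antigen family on the X chromosome, and its 3 arrays of day 4 are given below as a further set of values. All EBs were formed in hanging drops without a chosen lineage. The study used the SCR line as the control for the knockdown, and for some genes it also set the knockdown beside WT cells. The comparison of SCR with WT shows how far that control and the untransfected cells had the same transcriptome at this time. SCR is a single polyclonal line selected with puromycin, and its EBs of day 4 had fewer 2-fold differences from WT EBs of day 2 than from those of day 4, so effects of construct, selection, line, culture and sampling cannot be told apart. The labels number the arrays of a group by chip and do not say whether these were separate cultures. The p-values rest on the spread between arrays within groups, pooled over all 54 arrays, and that spread may be technical. For genes whose arrays of day 4 spread widely, the pooled spread can be smaller than their own.

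ESCs leave the naive state of the early epiblast, pass through a primed state like that of the later epiblast, and are then allocated to the germ layers. Nodal and FGF signals hold the primed state, while Wnt, BMP and higher Nodal activity drive cells into the primitive streak, from which mesoderm and definitive endoderm arise. In EBs these steps run one after another without outside cues, and the pluripotency factors Pou5f1, Nanog and Sox2 fall as the streak genes come up and give way to genes of the mesoderm.

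Values are RMA signals, which the authors deposited as log2 values for 30939 probe sets, and signals are printed here after taking them back from log2. The 6 arrays had median log2 values of 5.98 to 6.14 and lower quartiles of 4.305 to 4.37, and correlated at 0.9913 to 0.9967 within their group. In both groups replicate 3 lay strictly between the other arrays for more probe sets than replicates 1 and 2 did, namely for 47.8% against 18.7% and 27.9% in SCR EBs and for 47.1% against 20.6% and 25.5% in WT EBs. The same held in 17 of the 18 groups of the series, and whether the replicates 3 are independent samples was not tested. Mageb16, the target of the shRNA in KD cells, had signals of 861, 630.3 and 714 on the SCR arrays and 16.6, 11.2 and 13.4 on the KD arrays, against 143, 126 and 126 on the WT arrays. It was low in the KD line, as labelled, and higher on each SCR array than on any WT array (log2 change 2.47, SE 0.168, adjusted p = 6.69e-16 by limma). By group means, the SCR EBs of day 4 differed by at least 2-fold from WT EBs of day 2 in 1302 probe sets (4.21%), from SCR EBs of day 2 in 1786 (5.77%), from WT EBs of day 4 in 2798 (9.04%) and from KD EBs of day 4 in 3011 (9.73%). The KD and WT EBs of day 4 were 2-fold apart in 77 probe sets.

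Across the transcriptome, 1405 probe sets were higher and 1393 were lower in SCR EBs of day 4 than in WT EBs of day 4, at an adjusted p under 0.05 by limma and at least a 2-fold difference. These were 4.54% and 4.5% of all probe sets, 9.04% together. The median change over all probe sets was 0.0067 on the log2 scale. With 1 probe set for each of 14104 genes, 767 genes were higher (5.44%) and 743 were lower (5.27%), 10.7% together, and the counts of list members below are to be read against these shares. The lists hold genes of known pathways and cell types, 41 in all with 588 measured entries. A gene is written as having risen or fallen where it passed this threshold in SCR EBs against WT EBs. Sizes of change are not exact where a group averaged less than the lower quartile of signals, which held for the SCR mean of 36 named genes that fell, and for the WT mean of 12 that rose (Aass, Ugt8a, Cpeb1, Gpm6a, Dcn, Pax6, Neurod1, Wnt8a, Mael, Dazl, Oasl2 and Uba1y). In pooled RNA of whole EBs, fewer cells of a type and less RNA per cell cannot be told apart.

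Pluripotency genes were higher in SCR EBs. Of the core pluripotency factors, 11 of 14 rose and none fell, with a median log2 change of 2.31. Pou5f1, which encodes the factor OCT4, had signals of 2837, 3061 and 3061 on the SCR arrays and 399, 214 and 273 on the KD arrays, against 962, 410.1 and 622 on the WT arrays. Nanog, a homeodomain partner of OCT4, had signals of 1924, 2402 and 2272 on the SCR arrays and 405, 236 and 288 on the KD arrays, against 695, 385 and 534 on the WT arrays. Sox2, the HMG-box factor that binds DNA together with OCT4, had signals of 2504, 3019 and 2610 on the SCR arrays and 553, 319.6 and 449 on the KD arrays, against 422, 455 and 488 on the WT arrays. The groups SCR and WT did not overlap for any of these genes, although the WT arrays spread widely for Pou5f1 and Nanog, with replicate 1 highest and replicate 2 lowest. The changes were 2.25 for Pou5f1 (SE 0.21, adjusted p = 6.18e-12 by limma), 2.07 for Nanog (adjusted p = 6.97e-11) and 2.57 for Sox2 (adjusted p = 1.49e-18). The list was led by Dppa2 (2.99), a chromatin factor of early embryos, by L1td1 (2.86), an RNA-binding protein of stem cells, and by Utf1 (2.80), Gdf3 (2.69) and Dppa4 (2.61). The 3 members that did not pass were Sall4 with a log2 change of -0.20, Lin28a with 0.02 and Tdgf1 with 0.62. Lin28a, a repressor of let-7 processing, averaged 839.5 ± 69.8 in SCR EBs and 826 ± 30.0 in WT EBs (SD, n = 3 each, adjusted p = 0.909). At day 2, where 2.6% of all genes differed between the lines, none of the 14 members passed, and Pou5f1 averaged 2978 in SCR and 3509 in WT EBs and Sox2 averaged 3628 in SCR and 2235 in WT EBs.

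**Figure D1:**
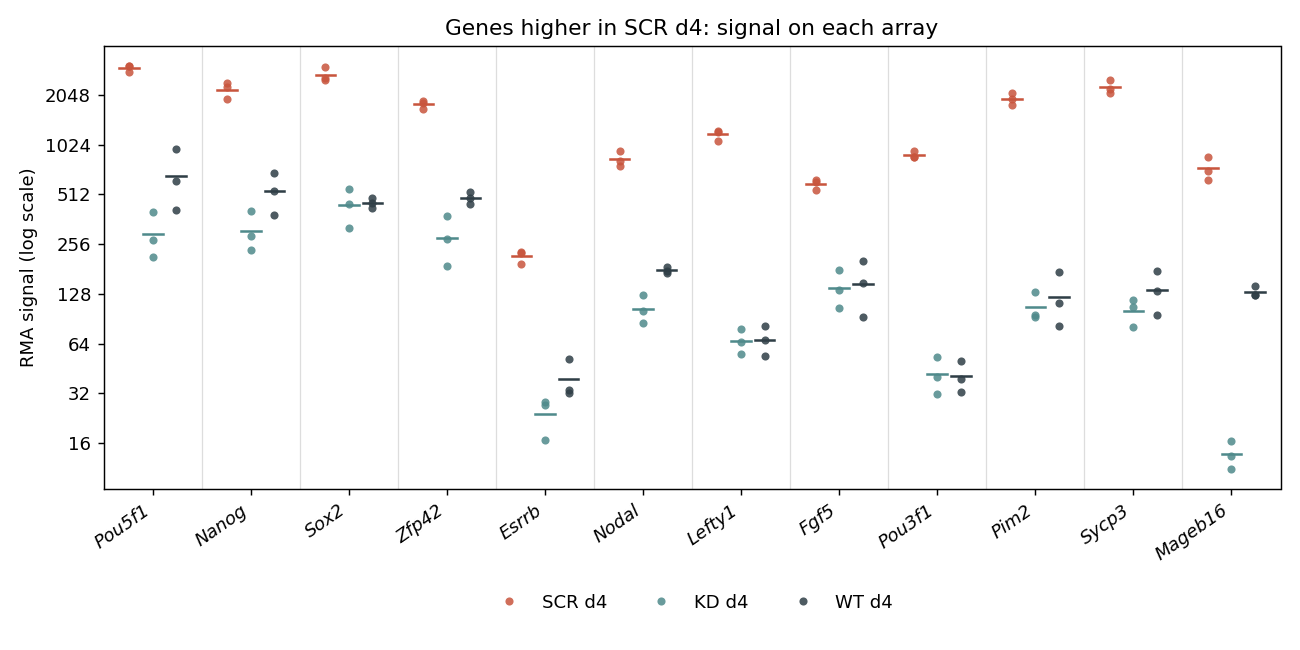
RMA signal on a logarithmic axis for pluripotency, Nodal and FGF genes, Sycp3 and Mageb16 in EBs of day 4, with 1 point for each array and 3 arrays each of SCR, KD and WT. For each of these genes the 3 SCR points lie above the 3 WT points, as for Sox2 with 2504, 3019 and 2610 in SCR and 422, 455 and 488 in WT. All KD points lie below all WT points for Mageb16, Pou5f1, Zfp42, Esrrb and Nodal. For the other genes drawn the KD and WT points overlap.

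Most genes of the naive state were higher as well. Among the naive factors 11 of 16 rose, with Nr0b1, Esrrb and Klf2 in front at 2.76, 2.50 and 2.49. Esrrb, an orphan nuclear receptor of the naive network, had signals of 194, 229 and 228 on the SCR arrays, against 52.0, 32.0 and 33.4 on the WT arrays. Zfp42, which encodes the marker REX1, had signals of 1872, 1687 and 1820 on the SCR arrays, against 530.1, 449 and 484 on the WT arrays. Both were higher on every SCR array (log2 change 1.88 for Zfp42 and log2 change 2.50, SE 0.215, adjusted p = 6.84e-13 for Esrrb by limma). In undifferentiated cells Esrrb averaged 1610 in SCR and 1339 in WT. At day 2 the same 3 leading genes, and none of the other 13 members, already passed, with Esrrb at 531 in SCR and 248 in WT EBs (log2 change 1.09) and changes of 1.16 for Nr0b1 and 1.10 for Klf2. Tbx3, Klf4 and Lifr were the 3 naive factors that fell (-3.70, -1.66 and -1.21), of which Klf4 and Lifr were picked out after their values were seen. Tbx3 is a T-box repressor used again in mesoderm and averaged 80.3 in SCR and 1023 in WT EBs. Between KD and WT EBs of day 4, 3 of the 14 core and 4 of the 16 naive factors were lower in KD and none higher. The medians were -0.63 and -0.61. Over all 14104 genes 14 were higher and 43 lower in that comparison, which shares the WT arrays.

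The primed factors held the largest rises among the pluripotency genes. Of this list 8 of 12 rose and 1 fell, with a median of 1.57. Pou3f1, the POU factor OCT6 of the epiblast, had signals of 861, 861 and 936 on the SCR arrays and 53.5, 31.8 and 40.5 on the KD arrays, against 50.2, 32.5 and 39.4 on the WT arrays (log2 change 4.47, SE 0.23, adjusted p = 1.09e-19 by limma). Pim2, a serine/threonine kinase, had signals of 1783, 2106 and 1938 on the SCR arrays, against 174, 81.6 and 113 on the WT arrays (log2 change 4.05). Fgf5, the classical marker of primitive ectoderm, averaged 593 ± 45.7 in SCR EBs and 148 ± 54.9 in WT EBs, Otx2, a homeodomain factor of the epiblast, averaged 1388 ± 81.6 in SCR EBs and 283 ± 143 in WT EBs and Sox3 averaged 267 ± 47.7 in SCR EBs and 32.9 ± 0.606 in WT EBs (SD, n = 3 each). All 12 measured members had SCR arrays that did not overlap with the WT arrays, as had 53.6% of all genes. The member that fell was Lef1, a nuclear partner of beta-catenin (275 in SCR and 876 in WT EBs, log2 change -1.68, picked out after its values were seen). At day 2 Pou3f1 averaged 1152 in SCR and 1593 in WT EBs and Fgf5 293 in SCR and 553 in WT EBs.

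Promoter sequences of some members that carry these changes are shown, each chosen to hold a match to a motif of the pluripotency or Wnt pathways. They are therefore not typical of the changed genes, whose shares with a match are given below the sequences. Each window is the 250 bases before the most upstream annotated start, from RefSeq on build GRCm38.p6, written 5′ to 3′ on the strand of the gene, with every match of the motifs searched in capitals. For the genes tested, 11299 of 14104 were found by symbol in the promoter table, among them 608 of the 767 higher and 572 of the 743 lower genes. The motifs were the octamer ATGCAAAT, the composite of a Sox and an Oct element TTGTNATGCAAA, and the TCF/LEF element ATCAAAG, each searched on both strands. A GATA element (AGATAA) and a Smad element (GGCGCC) were searched in the same way. The composite contains the first letters of the octamer, so that a composite followed by T also counts as an octamer.
Nanog (chr6:122707239-122707488, plus strand, composite found as TTTGCATTACAA): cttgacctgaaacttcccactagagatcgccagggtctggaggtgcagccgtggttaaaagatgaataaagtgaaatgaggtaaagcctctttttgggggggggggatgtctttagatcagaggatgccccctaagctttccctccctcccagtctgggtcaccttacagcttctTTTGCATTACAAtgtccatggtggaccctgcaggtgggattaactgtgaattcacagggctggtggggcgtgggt
Zfp42 (chr8:43307010-43307259, minus strand, octamer found as ATTTGCAT): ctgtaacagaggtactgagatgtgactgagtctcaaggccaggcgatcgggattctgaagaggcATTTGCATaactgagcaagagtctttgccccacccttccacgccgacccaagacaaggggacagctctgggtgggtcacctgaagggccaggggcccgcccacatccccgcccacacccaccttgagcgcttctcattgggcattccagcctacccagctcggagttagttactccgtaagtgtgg
Pim2 (chrX:7878056-7878305, plus strand, octamer found as ATTTGCAT and as ATGCAAAT, TCF/LEF element ATCAAAG): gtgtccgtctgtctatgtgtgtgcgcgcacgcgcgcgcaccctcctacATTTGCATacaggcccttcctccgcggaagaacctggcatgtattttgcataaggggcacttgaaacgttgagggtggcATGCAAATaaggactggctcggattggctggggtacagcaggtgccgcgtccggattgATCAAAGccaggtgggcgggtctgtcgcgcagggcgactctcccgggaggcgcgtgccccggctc
Mageb16 (chrX:79671436-79671685, minus strand, octamer ATGCAAAT): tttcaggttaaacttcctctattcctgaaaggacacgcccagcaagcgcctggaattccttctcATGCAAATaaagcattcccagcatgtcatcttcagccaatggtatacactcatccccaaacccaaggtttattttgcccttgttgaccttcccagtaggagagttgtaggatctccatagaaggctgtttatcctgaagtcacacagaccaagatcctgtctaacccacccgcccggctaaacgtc
Mesp1 (chr7:79793591-79793840, minus strand, TCF/LEF element found as CTTTGAT): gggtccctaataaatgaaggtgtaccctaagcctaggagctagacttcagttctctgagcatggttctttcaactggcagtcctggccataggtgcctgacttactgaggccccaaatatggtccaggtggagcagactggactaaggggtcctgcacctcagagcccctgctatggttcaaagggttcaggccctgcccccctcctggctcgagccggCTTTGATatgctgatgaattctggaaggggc

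The composite in Nanog begins 75 bases before the start, the octamer of Zfp42 and that of Mageb16 each begin 186 bases before it, and those of Pim2 begin 202 and 123 bases before it. The TCF/LEF matches begin 65 bases before the start of Pim2 and 31 bases before that of Mesp1. Mesp1 was lower and the other 4 genes were higher in SCR EBs. An octamer was found in 1.6% of the 32851 promoter entries, in 1.53% of the tested genes with a promoter, in 3.12% of the higher genes (19 of 608) and in 2.1% of the lower ones (12 of 572). The composite was found in 0.0335% of all entries and 0.0531% of the tested genes, in 2 of the higher genes (Nanog and Pipox) and in 1 of the lower (Nrarp). The TCF/LEF element was found in 3.21% of all entries, in 2.93% of the tested genes, in 3.12% of the higher and in 3.32% of the lower genes. The GATA element was in 9.99% of all entries, 7.83% of the tested genes, 7.73% of the higher and 6.99% of the lower genes. The Smad element was in 9.59% of all entries, 18.6% of the tested genes, 18.9% of the higher and 21.9% of the lower genes. These matches describe the letters of the windows and are neither binding sites nor causes of a change.

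In the Nodal pathway the ligand Nodal and its feedback inhibitors were higher in SCR EBs, while other members were lower or did not pass. Nodal, the TGF-beta ligand of the epiblast, had signals of 760.1, 936 and 820.3 on the SCR arrays and 125, 85.0 and 101 on the KD arrays, against 187, 176 and 172 on the WT arrays (log2 change 2.23, SE 0.125, adjusted p = 1.52e-18 by limma). Lefty1, an inhibitor that Nodal itself induces, had signals of 1082, 1243 and 1226 on the SCR arrays and 78.8, 55.3 and 65.3 on the KD arrays, against 82.1, 53.8 and 67.7 on the WT arrays (log2 change 4.14, SE 0.18, adjusted p = 3.64e-22). Lefty2, its neighbour in the genome, averaged 479 ± 61.2 in SCR EBs and 48.7 ± 28.0 in WT EBs (SD, n = 3 each). Both inhibitors were higher on all SCR arrays. Cfc1, a co-receptor for Nodal, averaged 112 ± 21.4 in SCR EBs and 1808 ± 305 in WT EBs (log2 change -4.02), Cer1, a secreted antagonist of Nodal, BMP and Wnt, averaged 23.9 ± 3.80 in SCR EBs and 155 ± 54.2 in WT EBs, and the DNA-binding partner of Smad2 encoded by Foxh1 fell by less (log2 change -1.26). Tdgf1, the co-receptor related to Cfc1, had signals of 2837, 3327 and 3019 on the SCR arrays, against 3350, 1053 and 2226 on the WT arrays, so that the groups overlapped (adjusted p = 0.0711). Over the 9 ligands and co-receptors 2 rose and 1 fell (median -0.38), and over the 6 antagonists and targets 2 rose and 2 fell (median 0.01).

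FGF ligands moved both ways. Fgf4, made by pluripotent cells, and Fgf5 rose (2.37 and 2.07), whereas Fgf3, Fgf10 and Fgf15, ligands of mesoderm, later organs and neural tissue, fell (-3.74, -3.74 and -1.73). Of the 12 ligands and receptors 2 rose and 5 fell. Feedback targets of ERK, the kinase below the FGF receptors, rose in 4 of 10 cases and fell in none. Dusp6, the phosphatase that removes the activating marks of ERK, had signals of 2150, 2369 and 2288 on the SCR arrays, against 1031, 369.6 and 648 on the WT arrays (log2 change 1.85). Etv5, an ETS factor induced by FGF, averaged 1797 ± 176 in SCR EBs and 569.6 ± 134 in WT EBs (SD, n = 3 each), and Spry4 and Spry1 rose by 1.23 and 1.20. Spry4 was below 2-fold without WT replicate 2 (0.98) and as the mean over its probe sets (0.88).

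Primitive streak genes were lower in SCR EBs, several of them near the lower quartile of the arrays. Of the streak list 12 of 14 fell and 1 rose, with a median of -2.22, against 5.27% of all genes lower. Mixl1, a homeodomain factor of the streak, had signals of 34.1, 41.9 and 44.6 on the SCR arrays and 584, 237 and 369.6 on the KD arrays, against 1499, 526 and 879 on the WT arrays (log2 change -4.47, SE 0.241, adjusted p = 4.33e-19 by limma). Mesp1, which marks the first cardiac mesoderm, had signals of 26.7, 23.3 and 27.9 on the SCR arrays and 207, 150.1 and 176 on the KD arrays, against 704, 195 and 416 on the WT arrays. Eomes, a T-box factor of mesendoderm, had signals of 236, 509 and 407 on the SCR arrays and 1113, 749.6 and 917 on the KD arrays, against 2702, 1090 and 1698 on the WT arrays and was picked out after its values were seen. For each of them the WT arrays lay above all SCR arrays (log2 change -3.90 for Mesp1 and -2.23 for Eomes), but they differed among themselves, with replicate 1 highest and replicate 2 lowest. The KD arrays had the same order for these genes. Lhx1, a LIM factor of the node and early mesoderm, averaged 16.4 ± 4.49 in SCR EBs and 793 ± 437 in WT EBs, Evx1, a homeodomain factor of the posterior streak, averaged 21.3 ± 3.94 in SCR EBs and 340.2 ± 149 in WT EBs, and Foxa2, the forkhead factor of the anterior streak, averaged 45.5 ± 17.8 in SCR EBs and 274 ± 53.5 in WT EBs (SD, n = 3 each). In WT replicate 1, the array with the highest Mixl1, Mesp1 and Eomes, Pou5f1 and Nanog were also the highest of the 3 WT arrays. The summed signal of the streak list was 648 to 1137 on the SCR arrays, against 3319 to 8435 on the WT arrays. The gene that rose was Wnt8a (30.2 in SCR and 12.8 in WT EBs, log2 change 1.20, 0.96 without SCR replicate 2), and Mesp2 did not pass (log2 change -0.97).

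Definitive endoderm genes were among the largest falls. In this list 8 of 12 fell and none rose (median -1.91). Sox17, the Sry-type factor of definitive endoderm and of haemogenic endothelium, had signals of 5.66, 7.67 and 6.32 on the SCR arrays and 849, 936 and 1010 on the KD arrays, against 803, 1017 and 996 on the WT arrays (log2 change -7.17, SE 0.172, adjusted p = 4.33e-30 by limma). Its 3 SCR arrays lay under the lower quartile of their arrays, so the size of this change is not exact. Foxa1, a pioneer factor of endoderm, averaged 30.9 ± 3.47 in SCR EBs and 289 ± 83.4 in WT EBs, and Cxcr4, a chemokine receptor of endoderm and mesoderm, averaged 13.8 ± 0.816 in SCR EBs and 879.9 ± 83.6 in WT EBs (SD, n = 3 each). KD EBs resembled WT EBs here, with log2 differences of -0.01 for Sox17, 0.01 for Foxa1 and -0.20 for Cxcr4 between KD and WT, a comparison that shares the WT arrays.

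Regulators of lateral plate and cardiac mesoderm fell by up to 6.36 on the log2 scale. In this list 12 of 20 fell and 1 rose, with a median of -2.02. Tbx20, a T-box factor of the early heart, had signals of 7.52, 7.46 and 9.45 on the SCR arrays and 526, 729 and 815 on the KD arrays, against 402, 929 and 781 on the WT arrays. Hand2, a basic helix-loop-helix factor of heart and limb, had signals of 19.4, 13.4 and 12.9 on the SCR arrays and 734, 898 and 891 on the KD arrays, against 739, 1024 and 910.2 on the WT arrays. Both genes lay under the lower quartile on the SCR arrays and far above it on all KD and WT arrays (log2 change -6.36 for Tbx20 and log2 change -5.88, SE 0.19, adjusted p = 2.32e-26 for Hand2 by limma). The other probe set of Hand2 had a log2 change of -0.77 and did not pass. Gata6, a zinc-finger factor of cardiac mesoderm and endoderm, averaged 20.3 ± 4.97 in SCR EBs and 562 ± 23.9 in WT EBs (SD, n = 3 each). Wt1, a zinc-finger factor of mesothelium and kidney, was the gene that rose (58.0 in SCR and 12.2 in WT EBs, log2 change 2.26, picked out after its values were seen). Its WT mean lay under the lower quartile, so the size of this change is not exact.

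Surface receptors of mesoderm gave the lowest median of the lists, -2.88, with 10 of 15 lower and none higher. Nrp1, a co-receptor for VEGF and semaphorins, had signals of 16.2, 13.4 and 12.8 on the SCR arrays and 1795, 2419 and 2592 on the KD arrays, against 1698, 2798 and 2521 on the WT arrays. Aplnr, the apelin receptor of the first migrating mesoderm, had signals of 6.36, 15.8 and 19.6 on the SCR arrays, against 1596, 1563 and 1722 on the WT arrays, and Pdgfra, the receptor that marks paraxial and cardiac mesoderm, had signals of 14.2, 16.1 and 20.0 on the SCR arrays, against 1017, 1489 and 1235 on the WT arrays. No SCR array came near a WT array for these genes (log2 change -6.21, SE 0.205, adjusted p = 4.16e-26 for Pdgfra by limma). Kdr, the VEGF receptor of blood and vessel progenitors, averaged 43.1 ± 8.18 in SCR EBs and 1087 ± 183 in WT EBs (SD, n = 3 each, picked out after its values were seen). Rgs5, a regulator of G protein signals in pericytes, had signals of 6.73, 8.63 and 6.82 on the SCR arrays, against 1428, 1687 and 1652 on the WT arrays (log2 change -7.75), with all SCR arrays under the lower quartile. Of the defining markers of mesoderm and endoderm, Mesp1, Pdgfra and Sox17 were thus at or near the lower quartile in SCR EBs. Kdr (43.1), Foxa2 (45.5) and the streak markers Mixl1 (40.2) and Eomes lay further above it on average.

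**Figure D2:**
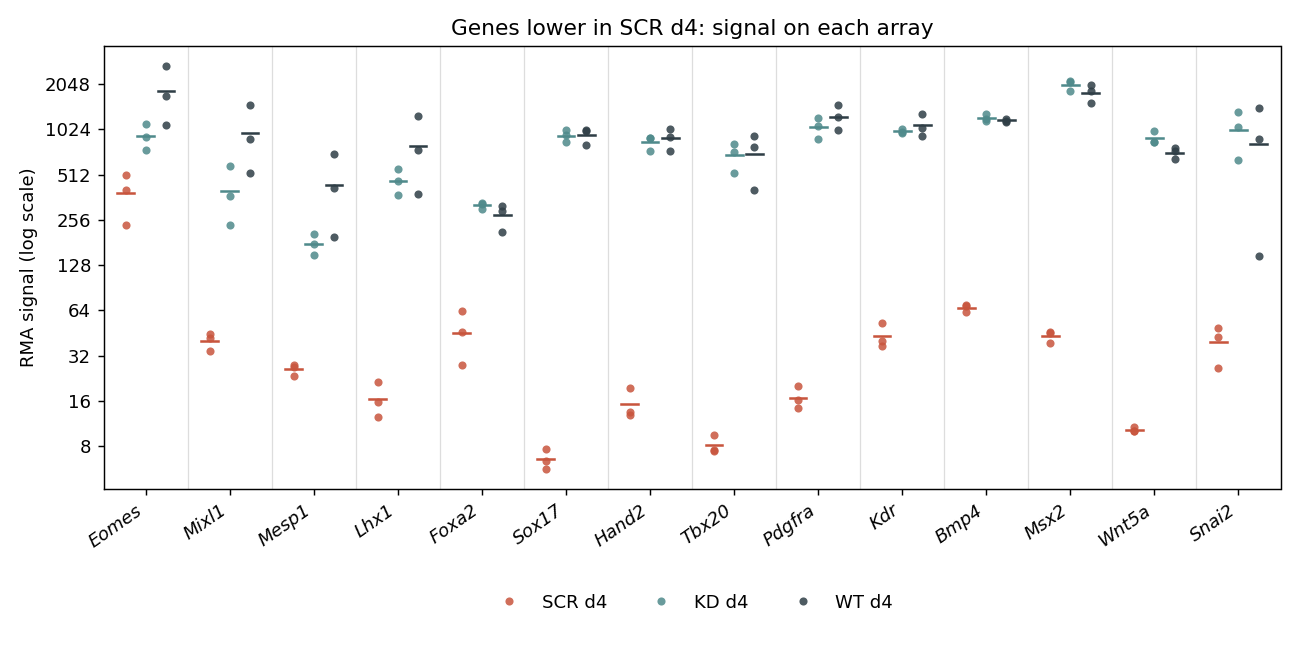
RMA signal on a logarithmic axis for streak, endoderm, mesoderm and BMP genes in EBs of day 4, with 1 point for each array and 3 arrays each of SCR, KD and WT. The SCR points lie below all WT points for every gene drawn, as for Hand2 with 19.4, 13.4 and 12.9 in SCR and 739, 1024 and 910.2 in WT, and the KD points lie near the WT points for most genes.

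Other derivatives of mesoderm changed in fewer members. In the paraxial list 5 of 11 fell, led by Rspo3, which enhances Wnt signals (31.2 in SCR and 491 in WT EBs, log2 change -4.00), and 1 rose, the bHLH factor Tcf15 (323 in SCR and 72.3 in WT EBs, log2 change 2.16). Of the blood and endothelial genes 5 of 22 fell and none rose (median -0.22). These were Runx1, needed for definitive blood (12.0 in SCR and 178 in WT EBs), Etv2, the ETS factor that starts the haemangiogenic programme (99.7 in SCR and 404 in WT EBs), and Lmo2, Tal1 and Sox7 (-1.68, -1.65 and -1.30). Muscle genes fell in 4 of 14 cases, among them the myosin light chains Myl7 (-3.10) and Myl4 (-2.68), and Tagln, an actin-binding protein of smooth muscle, rose (691 ± 38.8 in SCR EBs and 195 ± 28.4 in WT EBs, SD, n = 3 each). The contractile gene Tnnt2 had signals of 12.0, 8.88 and 5.21 on the SCR arrays, against 9.13, 14.8 and 13.2 on the WT arrays and did not pass (log2 change -0.56, adjusted p = 0.136), but passed with array weights (-1.11). All these signals lay under the lower quartile of the arrays. The weights were largest for replicate 3, at 3.13 in SCR and 6.56 in WT EBs. Actc1 passed at -1.10 and fell below 2-fold without SCR replicate 1 (-0.99).

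Ligands and targets of the BMP pathway were lower in SCR EBs. Bmp4, which specifies ventral and extraembryonic mesoderm, had signals of 62.7, 69.1 and 68.1 on the SCR arrays, against 1144, 1209 and 1168 on the WT arrays. Bmp2, a close relative, had signals of 22.8, 22.2 and 23.9 on the SCR arrays, against 879, 879 and 898 on the WT arrays, and Bmp5 averaged 16.7 ± 1.06 in SCR EBs and 639 ± 106 in WT EBs (SD, n = 3 each). The groups were far apart for each (log2 changes -4.14 for Bmp4 and -5.27 for Bmp2), with 4 of 10 ligands and receptors lower and none higher. Below the receptors, 9 of 16 targets and inhibitors fell and none rose, with a median of -2.01. Msx2, a homeodomain target of BMP, had signals of 45.9, 38.9 and 44.9 on the SCR arrays and 2106, 2165 and 1833 on the KD arrays, against 1531, 2020 and 1846 on the WT arrays (log2 change -5.37, SE 0.161, adjusted p = 2.43e-27 by limma). Its relative Msx1 and the inhibitory Smad gene Smad6 fell as well (-4.34 and -4.16), as did Bmper, which encodes a secreted regulator of BMP (-5.85). The other probe set of Msx2 had a log2 change of -0.34 and did not pass.

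Wnt ligands, receptors and targets that passed were mostly lower. Of 9 Wnt ligands 4 fell and 1 rose. Wnt5a, a ligand of the non-canonical branch that directs cell movements, had signals of 10.1, 10.6 and 10.1 on the SCR arrays, against 648, 765 and 739 on the WT arrays (log2 change -6.13, SE 0.199, adjusted p = 2.99e-26 by limma). Wnt2, Wnt5b and Wnt3, the ligand that starts the streak, fell too (log2 changes -3.65, -2.50 and -2.15). Lgr5, the receptor for R-spondins, averaged 16.0 ± 3.33 in SCR EBs and 252 ± 60.2 in WT EBs (SD, n = 3 each), and 6 of 15 receptors and co-receptors fell with none higher. Antagonists moved both ways, as Dkk1, Nkd1 and Frzb fell (-4.13, -3.20 and -3.07) while Sfrp2 rose (285 in SCR and 62.7 in WT EBs, log2 change 2.18). The 3 probe sets of Nkd1 had log2 changes of -3.20 to -0.0033, and 2 of them passed. In all 7 of 14 antagonists and targets fell and 1 rose. The receptor Fzd4 (-1.37) was not called without WT replicate 2 (-0.92) or in a fit of the 6 arrays alone (adjusted p = 0.0625), nor Fzd3 (-1.43) when its probe sets were averaged (-0.96).

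Hox genes and most retinoid genes that passed were lower. Of the Hox and Cdx genes 10 of 22 fell and none rose. Hoxb1, the first gene of the Hoxb cluster to come on, averaged 10.2 ± 1.50 in SCR EBs and 193 ± 80.9 in WT EBs, and Hoxb2 averaged 27.3 ± 1.32 in SCR EBs and 573 ± 77.4 in WT EBs (SD, n = 3 each). Hoxd1 and Hoxb3 fell too (-4.68 and -2.74), although the other probe set of Hoxb3 did not pass (-0.66). Cyp26a1, the enzyme that degrades retinoic acid, had signals of 25.3, 40.5 and 39.4 on the SCR arrays, against 2487, 1136 and 1746 on the WT arrays (log2 change -5.63). Crabp1, a carrier of retinoic acid, and Aldh1a2, the enzyme that makes it, fell (log2 changes -3.76 and -2.00), while the retinal reductase gene Dhrs3 rose by 1.83.

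Mesenchymal genes were lower in SCR EBs, while epithelial genes divided. Of the mesenchymal list 12 of 16 fell and 1 rose, with a median of -1.63. Snai2, a repressor of E-cadherin, had signals of 26.4, 48.5 and 42.5 on the SCR arrays, against 148, 1428 and 879 on the WT arrays, with WT replicate 1 far below the other WT arrays but above every SCR array (log2 change -3.91). Vim, the intermediate filament of mesenchyme, had signals of 704, 744 and 617 on the SCR arrays, against 2336, 3641 and 3061 on the WT arrays (log2 change -2.11, SE 0.126, adjusted p = 1.23e-17 by limma). Cdh11 and Cdh2, cadherins of mesenchyme, fell (log2 changes -5.76 and -3.71). Zeb2, another repressor of E-cadherin, passed at -1.18 but was under 2-fold when its probe sets were averaged (-0.97). Among 17 epithelial genes 6 rose and 3 fell. Those that rose included Cldn3, Cldn4 and the splicing factor Esrp1 (1.52, 1.44 and 1.44) together with Cdh1, which encodes E-cadherin (2928 in SCR and 1426 in WT EBs, picked out after its values were seen). Those that fell were the desmosome gene Dsp (-1.58) and the keratins Krt8 and Krt18 (-1.93 and -1.29), which belong to simple epithelia, Krt18 being picked out after its values were seen. Matrix genes fell in 10 of 24 cases, among them fibronectin, Fn1 (912 ± 75.0 in SCR EBs and 4071 ± 518 in WT EBs, SD, n = 3 each), the hyaluronan synthase Has2 (-2.21) and the type IV collagen genes Col4a1, Col4a2 and Col4a5 (-2.98, -2.72 and -2.80), and 1 rose. The other probe set of Col4a5 had a log2 change of -0.72 and did not pass.

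**Figure D3:**
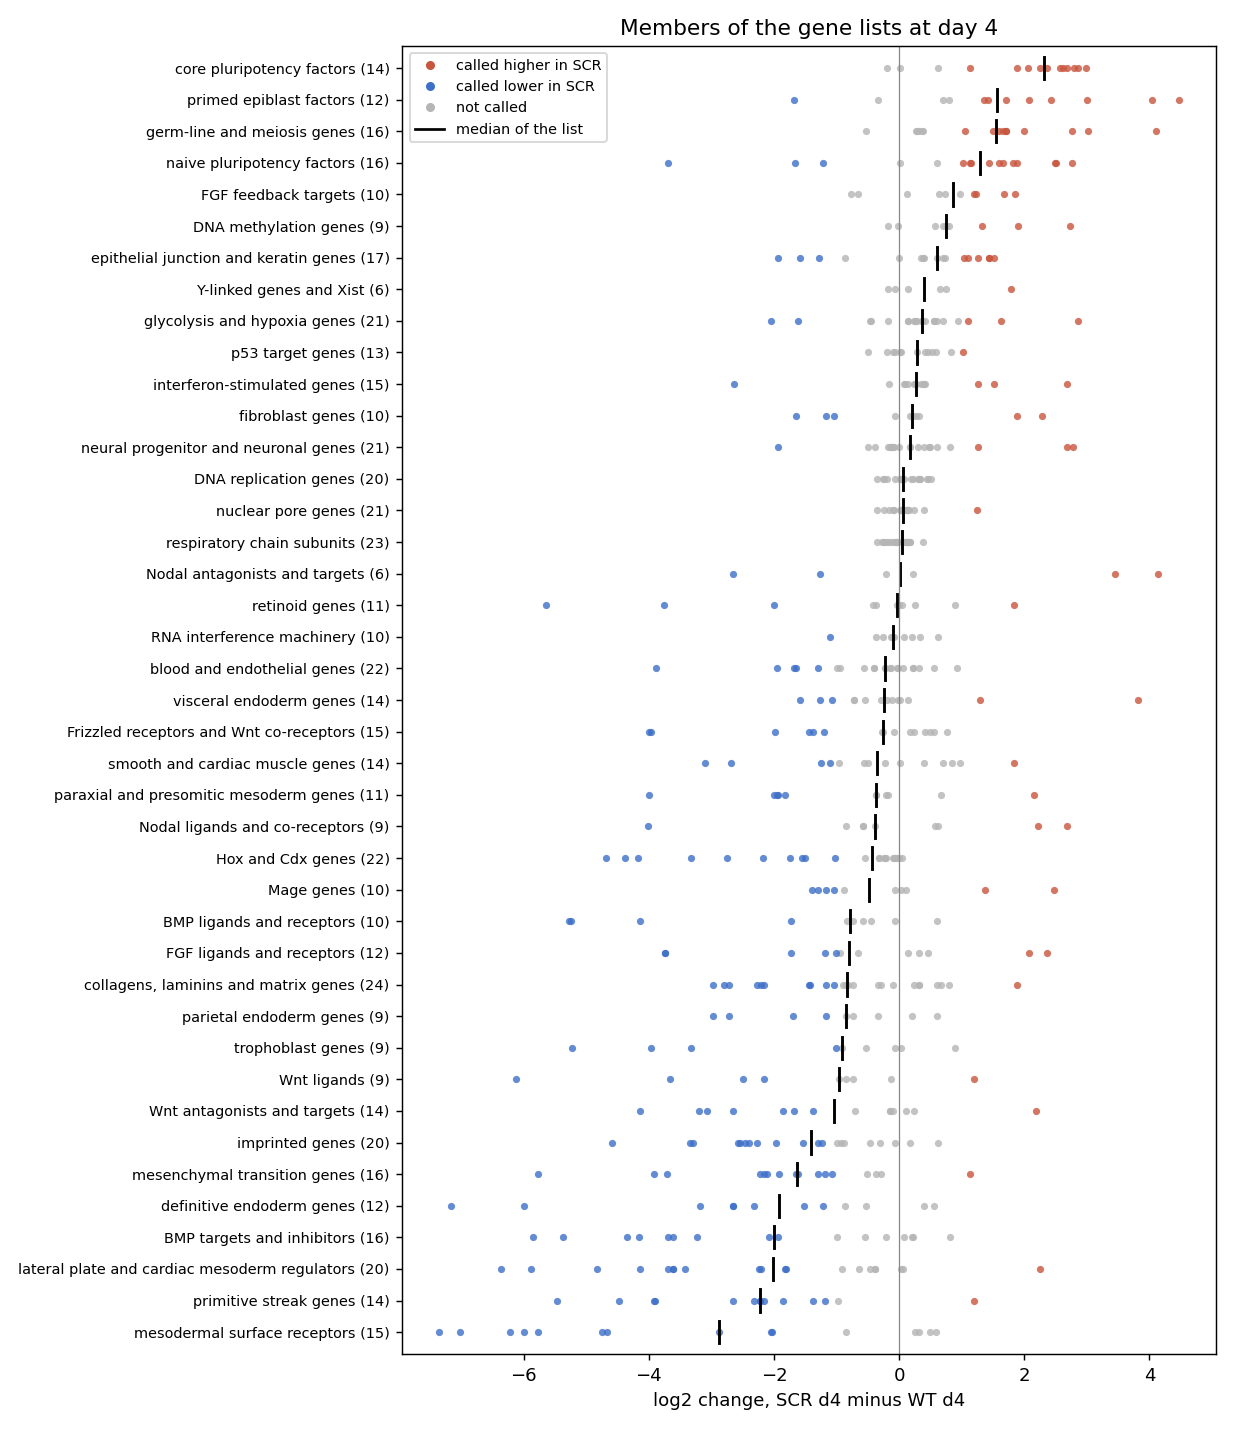
Log2 change of SCR EBs against WT EBs at day 4 for the measured members of 41 gene lists, with 1 point for each gene, a bar at the median of the list and colours for genes that were higher, lower or not past the threshold. Core and primed pluripotency lists lie to the right (medians 2.31 and 1.57), streak, mesoderm, endoderm and BMP lists to the left, and replication, nuclear pore and respiratory genes around 0.

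Markers of other cell types that the EBs could hold were set beside these lists. Of 9 trophoblast genes 4 fell and none rose, with summed signals of 380.1 to 422 on the SCR arrays, against 959 to 1800 on the WT arrays. Plac1, a gene of the placenta, had signals of 15.7, 12.4 and 11.9 on the SCR arrays, against 211, 917 and 630.3 on the WT arrays, and Gata3 and Cdx2, regulators of trophoblast that mesoderm also uses, fell as well (log2 changes -3.96 and -3.32). The last to pass, Tead4 (-1.01), dropped under 2-fold when SCR replicate 2 or 3 or WT replicate 1 or 3 was left out (-0.98 to -0.87). Visceral endoderm genes moved both ways, with Lrp2 (3.83) and Apoe (1.29) higher, Ttr (-1.58), Rhox5 (-1.26) and Rbp4 (-1.07) lower and a median of -0.24. Their summed signals were 2937 to 3190 on the SCR arrays, against 1395 to 2034 on the WT arrays. Most of that gap lay in Apoe, which averaged 2360 in SCR and 979 in WT EBs. Rbp4 was not called without SCR replicate 1 (-0.92), without WT replicate 1 (-0.96) or with array weights (-0.77). Parietal endoderm genes fell in 4 of 9 cases, including Plat (-1.70) and Lama1 (-1.17), with sums of 2187 to 2727 on the SCR arrays, against 3790 to 4795 on the WT arrays. As the mean of its probe sets Plat was under 2-fold (-0.77), as was Lama1 with array weights (-0.96). Their part in the results above was not tested.

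A few neural and fibroblast markers differed between the lines. Pax6, a regulator of neural progenitors, averaged 70.0 ± 4.85 in SCR EBs and 10.4 ± 2.16 in WT EBs, and Neurod1, a bHLH factor of neurons, averaged 96.7 ± 5.03 in SCR EBs and 15.0 ± 0.517 in WT EBs (SD, n = 3 each). With Map2 (1.27, 0.63 as the mean of its probe sets) these were the 3 of 21 neural genes that rose, and Ncam1 fell (-1.93). The 3 probe sets of Pax6 had log2 changes of 0.05 to 2.77, and 1 of them passed. At day 2 Neurod1 averaged 111 in SCR and 278 in WT EBs (log2 change -1.31), the opposite direction to day 4. In undifferentiated cells it averaged 126 in SCR and 245 in WT. Pax6 was higher in SCR at day 2 as well (57.0 in SCR and 27.4 in WT EBs, log2 change 1.05). The neural list summed to 1713 to 1877 on the SCR arrays, against 1369 to 1388 on the WT arrays. Among 10 fibroblast genes, Dcn (2.29, but -0.06 for its other probe set) and Col1a2 (1.89, 1.00 as the mean of its probe sets) rose and Prrx1 (-1.65), Postn (-1.16) and Col1a1 (-1.04) fell. Col1a1 was under 2-fold without SCR replicate 2 or WT replicates 2 or 3 (-0.95 to -0.88), and Postn without WT replicate 2 (-0.90). As means of their probe sets Prrx1 (-0.59) and Col1a1 (-0.70) were under 2-fold too. The summed fibroblast signal was 306 to 328 on the SCR arrays, against 187 to 275 on the WT arrays.

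Genes of the germ line rose in 10 of 16 cases and fell in none, with a median of 1.56. Sycp3, a component of the synaptonemal complex of meiotic chromosomes, had signals of 2106, 2521 and 2210 on the SCR arrays and 106, 81.0 and 117 on the KD arrays, against 177, 95.7 and 133 on the WT arrays (log2 change 4.11, SE 0.245, adjusted p = 1.04e-17 by limma). Mael, which acts in the silencing of transposons, averaged 108 ± 10.3 in SCR EBs and 13.7 ± 4.31 in WT EBs, Ddx4, the helicase VASA, averaged 189.7 ± 17.5 in SCR EBs and 28.5 ± 6.50 in WT EBs and Rnf17 averaged 376 ± 35.7 in SCR EBs and 94.1 ± 10.5 in WT EBs (SD, n = 3 each). Dazl, an RNA-binding protein of germ cells, rose by 1.71. Several of these genes are active in ESCs as well. At day 0, where 0.9% of all genes differed between the lines, 3 of the 16 were lower in SCR and none was higher (median -0.48). Mael averaged 96.1 in SCR and 236 in WT cells then, and Dazl 65.1 in SCR and 149 in WT cells, the opposite direction to day 4, while Sycp3 averaged 1227 in SCR and 1034 in WT cells and did not pass. Tet1, which oxidises methylated cytosine, Dnmt3l, the partner of the de novo methyltransferases, and Gadd45a were the 3 of 9 DNA methylation genes that rose (1.90, 1.32 and 2.73).

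Of the 20 measured genes on the list of imprinted genes 12 fell and none rose (median -1.41). That list leaves out Magel2, which rose and is given below with the Mage family. Igf2, the fetal growth factor expressed from the paternal allele, had signals of 159, 165 and 161 on the SCR arrays and 5043, 7486 and 6252 on the KD arrays, against 2048, 6081 and 4738 on the WT arrays. Peg3, a zinc-finger gene also expressed from the paternal allele, had signals of 541, 685 and 648 on the SCR arrays, against 5753, 6608 and 6472 on the WT arrays. Each was lower on every SCR array (log2 changes -4.59 and -3.33), and Phlda2 and Cdkn1c, growth inhibitors expressed from the maternal allele, fell too (-3.30 and -2.54). Alleles were not measured. Within the Mage family, Mageb16 and Magel2 rose (2.47 and 1.37) and Maged1, Ndn, Magee1 and Mageh1 fell (-1.39, -1.30, -1.17 and -1.04), of which Mageh1 was picked out after its values were seen.

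Lists that concern the plasmid and the shRNA were set beside all genes. Of the 15 interferon-stimulated genes 20% rose and 6.67% fell, against 5.44% and 5.27% of all genes, and their summed signal was 1452 to 1665 on the SCR arrays, against 672 to 707 on the WT arrays. Among these 15 interferon-stimulated genes, Bst2, a tether of budding virus, rose (928 ± 113 in SCR EBs and 144 ± 6.90 in WT EBs, SD, n = 3 each), as did Ddx58, a sensor of viral RNA (1.52, but 0.87 for its other probe set), and Oasl2 (1.26), whereas Usp18 fell (-2.64). The median of that list was 0.28. Most of the gap in its summed signal lay in Bst2, and Oasl2 averaged under the lower quartile in both groups. In the RNA interference machinery 1 of 10 genes passed, Prkra, a partner of Dicer (242 in SCR and 522 in WT EBs, log2 change -1.11). Of 13 targets of p53 only Eda2r passed, at 1.03, and not without SCR replicate 1 (0.97) or WT replicate 2 (0.98). No gene of 20 for DNA replication and none of 23 respiratory chain subunits passed in either direction (medians 0.07 and 0.04). Of 21 nuclear pore genes Nup210 rose (156 in SCR and 65.1 in WT EBs, log2 change 1.25). Hat1, a histone acetyltransferase, was higher by less than 2-fold (0.44, adjusted p = 7.18e-07 by limma), and Brca1, a DNA repair gene, had a log2 change of -0.11 (adjusted p = 0.216).

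More probe sets differed between SCR and WT at day 4 than on any other day sampled. They numbered 194 in undifferentiated cells (0.627%), 596 in 2-day EBs (1.93%), 2798 in 4-day EBs (9.04%), 1078 in 12-day EBs (3.48%), 1967 in 15-day EBs (6.36%) and 2453 in 22-day EBs (7.93%). The days share no arrays. Of the 596 probe sets of day 2, 223 were called at day 4 in the same direction (37.4% of the day 2 calls and 7.97% of the day 4 calls) and 67 in the opposite direction. Of the 194 of day 0, 36 had the same direction (18.6% of the day 0 and 1.29% of the day 4 calls) and 24 the opposite one, and of the 1078 of day 12, 183 had the same (17% of the day 12 and 6.54% of the day 4 calls) and 121 the opposite one. On the later days opposite calls outnumbered the others, with 173 of the 1967 of day 15 in the same direction (8.8% of the day 15 and 6.18% of the day 4 calls) and 354 in the opposite one, and 287 of the 2453 of day 22 in the same (11.7% of the day 22 and 10.3% of the day 4 calls) and 304 in the opposite one. KD EBs of day 4 differed from WT EBs of day 4 in 75 probe sets (0.242%).

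**Figure D4:**
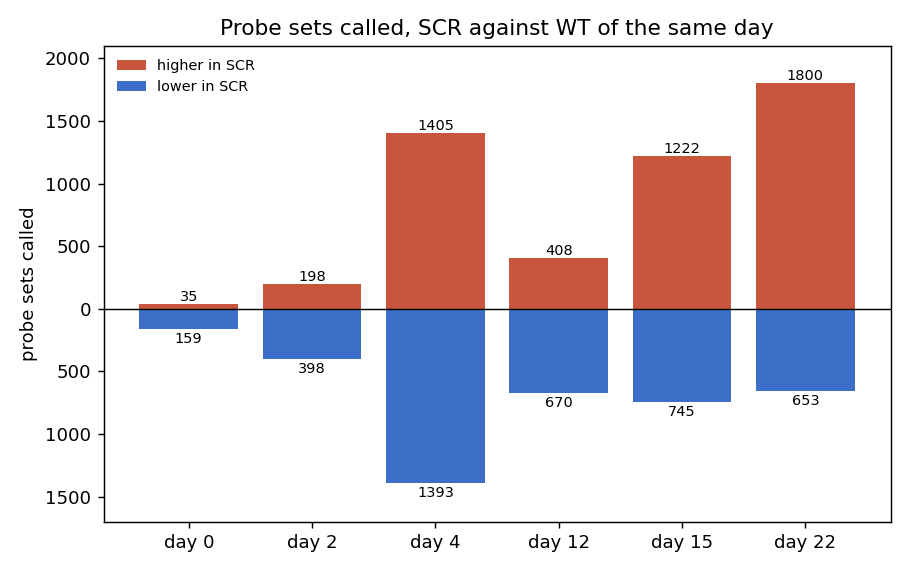
Number of probe sets higher and lower in SCR than in WT cells on each of the 6 days sampled, at an adjusted p under 0.05 and at least a 2-fold difference. Day 4 has 1405 higher and 1393 lower, day 12 has 408 and 670, and day 22 has 1800 and 653, so that the bar of higher probe sets is tallest at day 22 and that of lower ones at day 4.

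The difference between the lines changed between day 2 and day 4 in 2720 probe sets by the interaction term (8.79%), of which 1544 (4.99%) had a higher and 1176 (3.8%) a lower SCR to WT ratio at day 4. Of the 14 core pluripotency factors 10 higher and 0 lower passed this test, of the 20 lateral plate genes 1 higher and 13 lower, and of the 16 germ-line genes 11 higher and 1 lower, beside 6.16% of all genes higher and 4.4% lower. Within SCR EBs 1781 probe sets (5.76%) changed between day 2 and day 4, and within WT EBs 3937 (12.7%) did. Both of these share arrays with the comparison of the lines at day 4. In SCR EBs Pou5f1 averaged 2978 at day 2 and 2987 at day 4, and in WT EBs 3509 at day 2 and 665 at day 4. Hand2 averaged 14.5, 15.3 and 165 at days 2, 4 and 12 in SCR EBs, and 11.6, 891 and 405 in WT EBs. Mixl1 averaged 35.7 in SCR EBs and 40.0 in WT EBs at day 12. At day 12, where 4.42% of all genes differed between the lines, no core pluripotency factor did, with Pou5f1 at 1728 in SCR and 2203 in WT EBs.

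**Figure D5:**
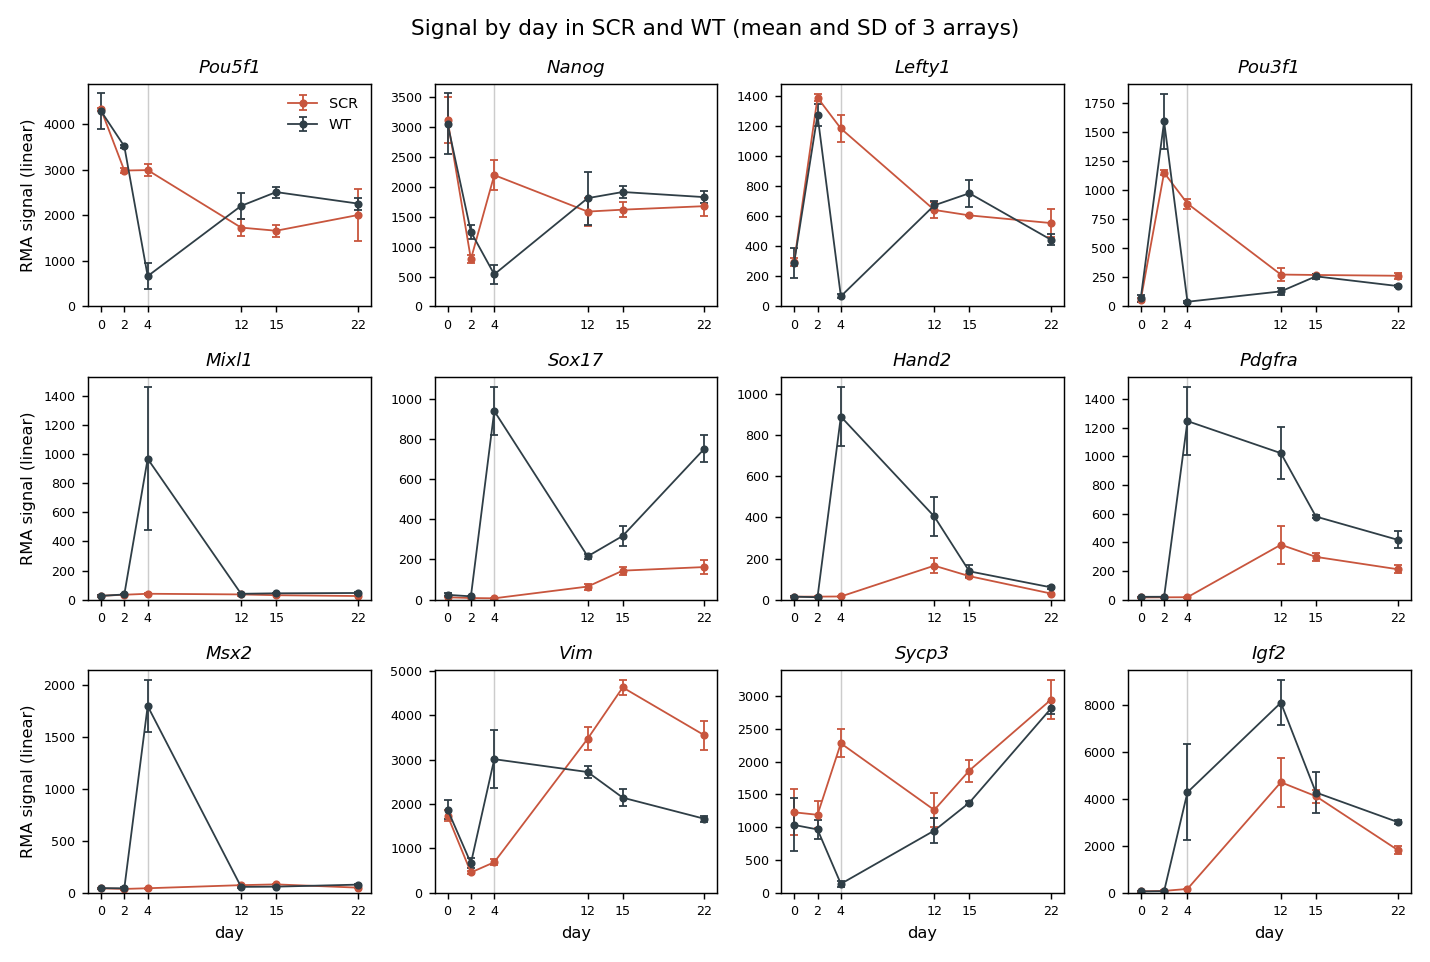
Mean RMA signal on a linear axis at days 0, 2, 4, 12, 15 and 22 in SCR and WT cells for 12 genes, with bars for the SD of 3 arrays. At day 4 Pou5f1 stood at 2987 in SCR and 665 in WT and Msx2 at 43.2 in SCR and 1799 in WT.

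Of the 14104 genes 1 was higher and 1 was lower in SCR on all 6 days, and both are named for that. Aass, a mitochondrial enzyme of lysine breakdown, had signals of 516, 402 and 484 on the SCR arrays and 23.9, 13.4 and 23.6 on the KD arrays, against 16.1, 17.3 and 17.8 on the WT arrays at day 4 and was higher in SCR by 2.30, 3.85, 4.77, 2.49, 1.15 and 1.75 on the log2 scale in day order. Srgn, a proteoglycan of secretory granules, was lower in SCR, with changes of -3.21, -3.20, -2.11, -3.57, -3.56 and -1.35. On days 0, 2 and 4 together, 3 genes were higher in SCR and 8 were lower. Grhl2, an epithelial transcription factor, was among the higher ones, with changes of 1.02, 1.10 and 2.10, and Rhox5, a homeobox gene of the X chromosome, was among the lower ones, with -4.30, -3.19 and -1.26.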

How the data were processed

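Total RNA of EBs was hybridised to Affymetrix Mouse Genome 430 2.0 arrays, 1 array a sample, 54 arrays in 18 groups of line and day. The authors deposited log2 values of 30939 probe sets. Per the labels they were made by RMA (background correction, quantile normalization, summary of probes) with Affymetrix Expression Console and Partek 6.6, while the methods of the study name R packages and another RNA kit. RMA across lines that differ in many genes assumes equal distributions of signal. No raw files were used. Symbols came from the platform annotation: 25596 probe sets had 1 symbol, 685 several and 4658 none, and a gene was given its brightest probe set, which leaves 80 named genes with further probe sets, all called alike for 50.

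With R 4.3.3 and limma 3.58.1, a mean for each of the 18 groups was fitted on all 54 arrays (lmFit, eBayes). The contrasts were SCR minus WT at day 4, at each other day, and the difference of day 4 from day 2. A call required a Benjamini-Hochberg adjusted p under 0.05 over all probe sets and at least a 2-fold difference. Tested on simulated data for the contrast at day 4 with 30939 probe sets, 49 of 50 changes of 1.5 and 1 of 50 of 0.7 on the log2 scale were recovered, with 0 of 30739 unchanged probe sets called. Changes of 0.7 lie under the 2-fold minimum and could seldom pass. The simulated noise was normal, independent and of equal spread in all groups, as the fit assumes. It therefore does not cover arrays that depend on each other or groups of unequal spread. With 3 arrays a group the precision is limited by their number. The members and the lists were chosen with earlier results of these data known. Named genes are the 12 largest rises and falls whose arrays do not overlap, up to 5 called members of each list, the 5 largest rises and falls of the interaction, and 12 genes that the study plots. List members that did not pass were also given where they complete a count. Others are said in the text to have been picked out after their values were seen. Alternatives were other normalizations, a filter on dim probe sets, other variance models, other thresholds, left-out arrays and the replicate number as a block.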

Additional observations from a re-analysis of the deposited data

Results flagged for a closer look

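The difference between SCR and WT EBs was not the same at day 4 as at day 2, by the interaction term of the fit across all 54 arrays. At day 4 the SCR to WT ratio was higher in 1544 probe sets and lower in 1176. Among named genes, the change was 5.36 on the log2 scale for Ugt8a, an enzyme of myelin lipids (with line differences of 4.72 at day 4 and -0.64 at day 2). It was 5.13 for Pim2 (4.05 at day 4 and -1.08 at day 2), 4.92 for Pou3f1 (4.47 and -0.46), 4.63 for the cell adhesion gene Nrcam (2.06 and -2.57) and 4.60 for the neuronal membrane gene Gpm6a (3.43 and -1.17). Downwards it was -7.17 for Rgs5, -7.16 for Nrp1, -7.08 for Aplnr, -6.69 for the protease inhibitor gene Spink1 and -6.20 for Hand2. These sizes are not exact for Ugt8a and Gpm6a, whose WT means at day 4 lay under the lower quartile of the arrays, nor for the 5 genes with a downward change, whose SCR means did. The adjusted p by limma was 9.33e-18 for Ugt8a and 3.65e-21 for Rgs5. No group had the 4 arrays that a search for outlying arrays needs.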

How the results depend on the processing

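The counts of probe sets higher (1405) and lower (1393) at day 4, and of higher (1544) and lower (1176) line differences against day 2, stayed within 1.5 times under other normalizations, array sets and variance models. Quantile normalization repeated gave 1450 and 1345 and median centring 1473 and 1344 at day 4. Exceptions were the interaction among the brightest 60% of probe sets, with 745 lower, the test against a 2-fold minimum (treat), with 662 and 692 at day 4 and 502 and 449 for the interaction, and the adjusted p alone, with 6254 and 7030 and with 4444 and 4215. The treat test asks more of each gene, the adjusted p alone drops the fold minimum, and the brightest probe sets are fewer by construction. Leaving out 1 array at a time gave 1341 to 1538 higher and 1289 to 1534 lower at day 4, and 1468 to 1701 higher and 1106 to 1287 lower for the interaction. With only replicates 1 and 2 of each group, chosen after seeing the data, 1372 were higher and 1436 lower at day 4, of which 2651 were also called with all arrays in the same direction, and the interaction gave 1385 and 1060. The replicate numbers were used as a block as well. Deviations of same-numbered SCR and WT arrays correlated weakly, at 0.10, 0.04 and 0.14. Each array correlated best with its own number, a hint from the data and not the design. Whether same-numbered arrays belong together was not tested. The replicate block gave 1405 higher and 1393 lower at day 4, all 2798 calls shared, and 1545 and 1176 for the interaction. No named gene reversed its direction. Of 169 named genes called, 135 were called alike under all 18 alternatives and 34 were not under at least 1, mostly under treat. Averaging the probe sets of a gene moved 18 of 123 counts of list members. Signal over background limits the sizes, which are not exact where the SCR signal of a gene that fell, or the WT signal of one that rose, lies under the lower quartile of the arrays.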

Other observations

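Several of the largest differences lay outside the pathways described. Among the 12 largest rises were genes of transport and lipid metabolism. Abcc4, an exporter of cyclic nucleotides and drugs, had signals of 2304, 3304 and 2798 on the SCR arrays, against 169, 114 and 133 on the WT arrays (log2 change 4.34). Slc27a2, a fatty acid transporter, averaged 806 ± 33.0 in SCR EBs and 55.4 ± 20.8 in WT EBs, Slc7a3, a carrier of basic amino acids, averaged 2089 ± 132 in SCR EBs and 183 ± 27.7 in WT EBs, and the ectoenzyme Enpp3 averaged 1144 ± 34.3 in SCR EBs and 83.6 ± 15.2 in WT EBs (SD, n = 3 each). Cpeb1, which controls translation through the poly(A) tail, rose by 3.76. Asb4, a subunit of ubiquitin ligases in vascular progenitors, had signals of 20.0, 18.9 and 22.0 on the SCR arrays, against 1278, 1176 and 1201 on the WT arrays (log2 change -5.91), with 2 of the SCR arrays under and 1 above the lower quartile.

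Genes of glycolysis and the hypoxia response moved both ways, with 3 higher and 2 lower of 21 (median 0.37). Pdk1, the kinase that holds back pyruvate entry into mitochondria, had signals of 2647, 2916 and 2740 on the SCR arrays, against 446, 329 and 383 on the WT arrays (log2 change 2.85), Bnip3 rose by 1.64 and Hk1 by 1.10 (0.92 without WT replicate 1 and 0.68 as the mean of its probe sets). Ndrg1 and Vegfa, both induced by hypoxia, fell (log2 changes -2.04 and -1.62). Uba1y was the 1 of 6 genes of the Y chromosome and Xist that passed (log2 change 1.78, but 0.78 for its other probe set).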
